A study of Mus musculus with 10 samples.

Results

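Genes of G protein-coupled receptors were examined in cultured mouse cortical neurons, with and without Fmr1, the gene whose silencing causes fragile X syndrome and which encodes the RNA-binding protein FMRP. Receptor genes were chosen by name from the deposited table of RNA metabolic rates: adrenergic (Adr), serotonin (Htr), muscarinic acetylcholine (Chrm), dopamine (Drd), metabotropic glutamate (Grm), GABA-B (Gabbr), purine (Adora, P2ry), lysophospholipid (S1pr, Lpar), Frizzled (Fzd) and numbered Gpr genes. The rule matched 52 of the 8590 genes in the table. They were 10 amine and acetylcholine receptors, 5 metabotropic glutamate receptors, 7 Frizzled receptors, 1 adenosine receptor (Adora2b), 1 sphingosine 1-phosphate receptor (S1pr1) and 28 numbered Gpr genes. The rule itself reads gene names and no measured value. Some numbered Gpr genes, such as Gpr89, Gpr107, Gpr108, Gpr137, Gpr155 and Gpr180, encode membrane proteins that are not classical receptors of this class. Gpr137b-ps is a pseudogene copy of Gpr137b, so the reads of this pair may have been split between them and their values are uncertain. Grm5, Gabbr1, Gabbr2, Drd1, Drd2, Adora1 and Htr2a, among the receptors best known in cortex or linked to FMRP, were not analysed here.

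Cortices came from mouse embryos at embryonic day 18, and dissociated cells were kept for 14 days in vitro; wild-type and Fmr1-knockout cultures carry the same strain label, FVB.129P2-Pde6b+ Tyrc-ch/AntJ. The cultures received 200 µM 5-ethynyluridine (5-EU), a uridine analogue built into new RNA, for 20 or 60 min, and labelled RNA was pulled down after coupling to biotin. The 10 samples were 2 labelled libraries, 2 inputs and 1 pull-down of unlabelled RNA per genotype, and the rates were given for the 4 labelled libraries. The 20 and 60 min libraries are the only repeats of a genotype, and the labels do not say that they came from separate cultures, so p-values measure only the spread between labelling times, which may be technical. The table gives a synthesis rate (new RNA made), a processing rate (precursor turned into mature RNA) and a degradation rate (mature RNA lost) per gene. Its time unit is not stated and rates are printed here in its units. No read counts were used, so the depth behind a rate is unknown. The labels list a spike-in of 10% (w/w) for every sample, and its use in scaling the rates was not examined.

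As a check of the labels, Fmr1 itself was given degradation rates of 0.0774 (20 min) and 0.0672 (60 min) in wild-type cells, against 2.58 and 2.66 in knockout cells (log2 change 5.18, SE 0.319, limma adjusted p = 0.0235). The mature Fmr1 level solved from the rates, as explained below for the receptors, was 10.5 and 10.3 in wild-type cells against 3.50 and 3.20 in knockout cells. Its synthesis rate went the other way, at 0.810 and 0.692 in wild-type cells and 2.06 and 1.56 in knockout cells (log2 change 1.26, SE 0.404, limma adjusted p = 1.00), so RNA from the Fmr1 gene is listed in the libraries labelled knockout. Of marker genes for the cells such a culture can hold, the table lists 3 of 10 neuronal (Rbfox3, Slc17a6, Gad2), 3 of 7 astrocyte (Aqp4, Aldh1l1, Gja1), 5 of 8 oligodendrocyte-lineage (Mbp, Olig2, Sox10, Pdgfra, Cspg4), 0 of 7 microglial and 0 of 5 endothelial genes. Map2, Tubb3 and Snap25 are among the neuronal markers that were not analysed here. The summed synthesis rate of Rbfox3 and Slc17a6, the neuronal markers listed in every library, was 3.12 and 1.78 at 20 and 60 min in wild-type cells and 2.40 and 1.31 in knockout cells; Gad2 (1.76 and 1.58 in wild-type cells) had no knockout rate. The astrocyte sum was 5.35 and 4.12 in wild-type cells, and the oligodendrocyte-lineage sum was 21.5 and 15.5. In the knockout these sums hold fewer genes and are not compared: rates are listed for 2 and 1 of the 3 astrocyte genes and for 1 and 3 of the 5 oligodendrocyte-lineage genes. Aldh1l1, the astrocyte marker listed in every library, had 2.11 and 1.11 in wild-type cells and 2.76 and 1.23 in knockout cells, and Olig2, the lineage marker so listed, had 12.6 against 13.8 at 60 min and was likewise lower in wild-type than in knockout cells (20.2) at 20 min. At 60 min Mbp (0.779 against 0.508) and Cspg4 (0.765 against 0.631), the other lineage markers with a rate in both genotypes, were higher in wild-type cells. The part of cell composition in the results below was not tested. In a culture measured in bulk, fewer cells of a type and less RNA per cell cannot be told apart.

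G protein-coupled receptors span the membrane with a bundle of helices and, when bound by a transmitter, lipid or other ligand, switch on heterotrimeric G proteins, which act on adenylyl cyclases, phospholipase C and ion channels. Metabotropic glutamate receptors tune transmitter release and synaptic plasticity. Frizzled receptors bind Wnt ligands, and many numbered Gpr genes are orphans with no agreed ligand. Many genes of this class have no intron in their coding sequence.

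In wild type, receptor transcripts ranged widely in how fast they were made. Gpr22, an orphan receptor gene of brain and heart, had the highest synthesis rate of the receptor genes in all 4 libraries, at 7.11 (20 min) and 8.97 (60 min) in wild-type cells and 6.10 and 6.93 in knockout cells. Gpr85, a strongly conserved orphan of brain, had 5.47 and 7.48 in wild-type cells and 6.07 and 6.10 in knockout cells. The ranges of Gpr22 and Gpr85 overlapped, and Adra2a, given below, lay above Gpr85 in wild-type cells at 20 min. At the low end, Adra1b, a Gq-coupled receptor for noradrenaline, had 0.217 and 0.161 in wild-type cells and 0.228 and 0.133 in knockout cells. The median receptor gene had a synthesis rate of 1.06 (20 min) and 1.43 (60 min) in wild-type cells, beside 1.06 and 1.02 over all genes.

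Promoters of receptor genes with high and with low synthesis rates are printed here from the RefSeq promoter table (GRCm38.p6, 250 bases before to 50 after the start), in which 37 receptor genes were matched by symbol. They are the top pair and the bottom pair by mean log2 synthesis rate of the 23 receptor genes with a single listed promoter and all 4 synthesis rates. Adra1b (geometric mean 0.180) and Gpr153 have lower synthesis rates than these but several listed promoters, and were left out for that reason; those of Adra1b hold 28 and 3 CpG and those of Gpr153 35 and 42. Each is written 5′ to 3′ on the strand of the gene, and capitals mark matches on either strand to the TATA box letters TATAAA, the GC box letters GGGCGG and the TGACG core of the cAMP response element. The first pair, with high synthesis, is Gpr22 (chr12:31713834-31714133, minus strand) and Gpr85 (chr6:13839893-13840192, minus strand), and the second pair, the lowest of those 23 (geometric means of 0.470 and 0.522 over the 4 libraries), is Gpr180 (chr14:118136877-118137176, plus strand) and Gpr155 (chr2:73386431-73386730, minus strand).
Gpr22: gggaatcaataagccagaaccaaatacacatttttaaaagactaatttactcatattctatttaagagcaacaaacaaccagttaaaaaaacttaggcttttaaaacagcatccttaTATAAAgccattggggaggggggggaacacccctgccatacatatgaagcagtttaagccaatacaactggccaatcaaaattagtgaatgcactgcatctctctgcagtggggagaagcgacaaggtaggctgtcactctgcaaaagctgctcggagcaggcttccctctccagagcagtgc
Gpr85: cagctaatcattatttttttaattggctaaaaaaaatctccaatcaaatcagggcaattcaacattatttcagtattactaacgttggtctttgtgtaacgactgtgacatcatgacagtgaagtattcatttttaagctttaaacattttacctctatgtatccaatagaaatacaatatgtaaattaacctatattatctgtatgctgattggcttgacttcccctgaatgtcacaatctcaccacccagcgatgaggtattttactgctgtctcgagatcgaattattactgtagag
Gpr180: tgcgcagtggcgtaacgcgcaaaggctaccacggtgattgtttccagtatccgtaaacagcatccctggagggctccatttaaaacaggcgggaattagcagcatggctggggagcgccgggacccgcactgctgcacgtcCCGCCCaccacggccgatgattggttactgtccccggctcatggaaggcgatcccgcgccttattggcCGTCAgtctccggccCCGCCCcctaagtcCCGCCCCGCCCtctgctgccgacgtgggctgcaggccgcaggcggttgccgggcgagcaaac
Gpr155: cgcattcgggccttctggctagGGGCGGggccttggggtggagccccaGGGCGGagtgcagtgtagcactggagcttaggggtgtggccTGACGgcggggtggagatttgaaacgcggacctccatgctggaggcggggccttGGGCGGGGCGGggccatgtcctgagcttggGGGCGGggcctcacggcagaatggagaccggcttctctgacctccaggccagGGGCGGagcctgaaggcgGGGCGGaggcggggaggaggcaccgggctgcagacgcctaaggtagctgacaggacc

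The promoters of the highly made pair held few CpG dinucleotides, 2 in Gpr22 and 5 in Gpr85, with 43.0% and 33.3% G or C. Those of Gpr180 and Gpr155 held 29 and 20 CpG with 65.3% and 70.3% G or C, and 4 and 7 GC boxes. Gpr180 and Gpr155 are both among the genes named above as not classical receptors of this class. The single TATAAA match of Gpr22 begins at position -133 from the start site. This contrast of 2 pairs did not extend over the receptor genes: across the 30 with a promoter and all 4 synthesis rates, Spearman rho between CpG number and mean log2 synthesis rate was -0.04, beside 0.16 across 4479 genes of the table. The points share their libraries and differ in base composition, and no p is given. Of 50 receptor promoters (some genes have several), 0 held the full element TGACGTCA, against 3.15% of the 8673 promoters of genes in the rate table and 1.79% of all 32851. TGACG was in 22.0% of receptor promoters (32.2% and 20.8%), TATAAA in 8.0% (6.23% and 13.6%) and GGGCGG in 56.0% (65.2% and 35.7%). The letters of TGACG lie inside those of the full element. A match is a description of the letters in this window and not a bound site.

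**Figure D1:**
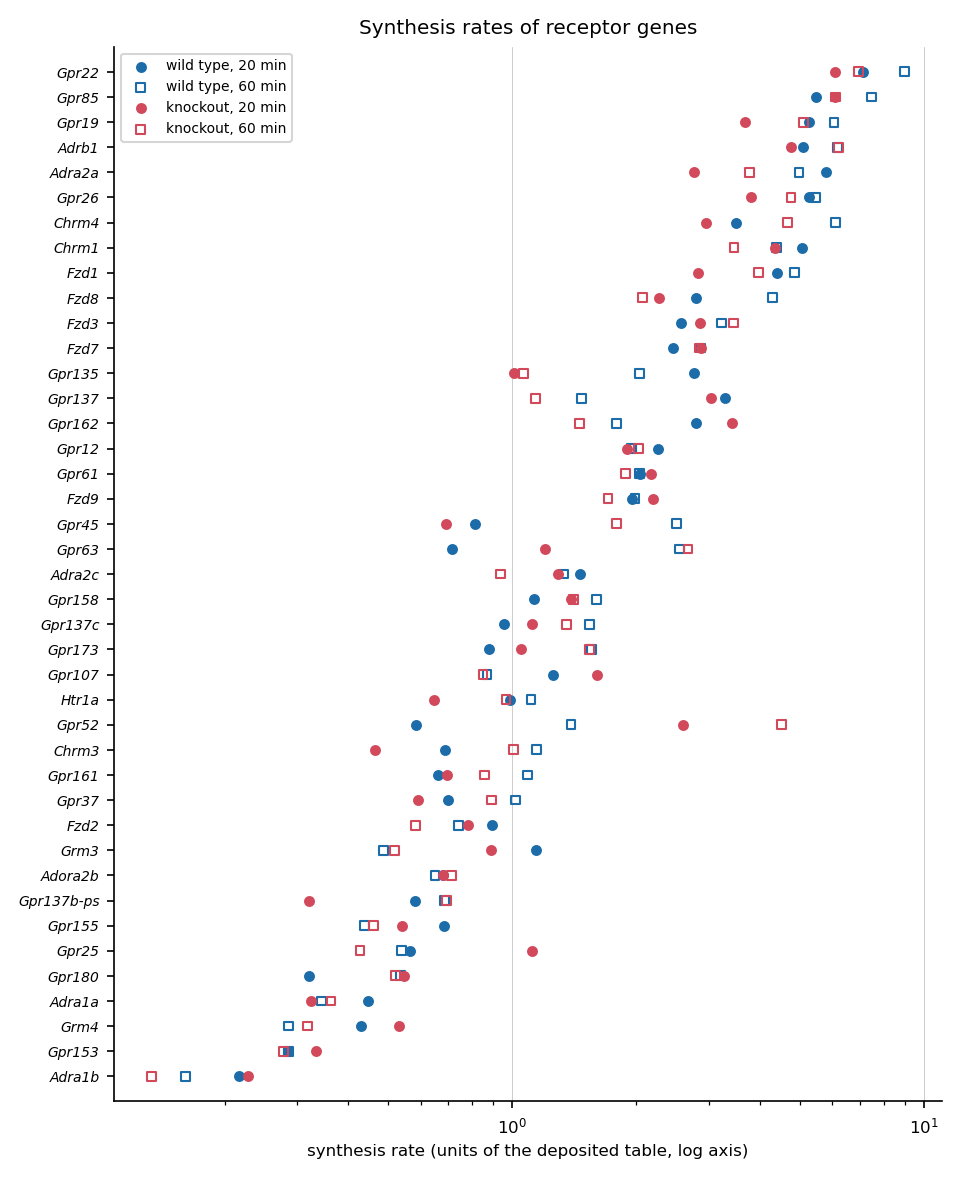
Synthesis rates of 41 receptor genes listed in all 4 labelled libraries (log axis, units of the deposited table), ordered by wild-type mean. Blue marks are wild type and red marks are knockout; filled circles are 20 min and open squares 60 min. Gpr22 is highest and Adra1b lowest, and the colours intermix in most rows, with Gpr52 displaced to the right in knockout cells.

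Gene structure divided the receptor genes by which rates could be listed. In GENCODE M21 (GRCm38), 10 of the 51 annotated receptor genes (19.6%) have a single exon in every transcript, against 276 of 8519 genes (3.24%) over the table. They are Adra2c, Chrm4, Htr1a, Fzd1, Fzd2, Fzd7, Fzd8, Fzd9, Gpr25 and Gpr135. Of these 10, 9 have degradation rates but no processing rate; the exception is Chrm4, a muscarinic receptor, with processing rates of 50.6 in wild-type cells and 15.6 in knockout cells at 60 min only. Of the 41 receptor genes with introns, 38 have a processing rate in some library, and Adra2a and Adrb1 are among those with none. Over all genes, 274 of 276 single-exon genes and 102 of 8243 with introns have a degradation but no processing rate. The median wild-type degradation rate was 0.406 for the single-exon receptor genes and 0.152 for those with introns, beside 0.335 and 0.112 over all genes. Median wild-type synthesis rates were 2.19 and 1.06 for the same receptor groups, beside 3.84 and 1.05 over all genes.

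Wild-type receptor transcripts were degraded faster than the median gene in 35 of 50 cases (70.0%) at either labelling time. Their median degradation rate came to 0.179 (20 min) and 0.199 (60 min), beside 0.111 at both times over all genes. The order ran from Gpr12 (2.71 and 2.34), an orphan that raises cAMP without added ligand, through Gpr22 (1.08 and 1.37), Gpr19 (0.917 and 1.06) and Fzd8 (0.759 and 1.17) to Gpr153 (0.0429 and 0.0430) and Gpr162 (0.0484 and 0.0310). Gpr12 stood apart from Gpr22 at both times, and the values of Gpr22 lay above those of Gpr19, whereas those of Fzd8 overlapped both Gpr22 and Gpr19. Among Frizzled genes, Fzd7 (0.695 and 0.811), Fzd1 (0.642 and 0.709) and Fzd8 were fast, and Fzd3, which has introns, was slow (0.0835 and 0.104). Fzd2 (0.345 and 0.286) and Fzd9 (0.220 and 0.223), single-exon genes like the fast ones, lay in between. In the knockout the receptor median was 0.292 and 0.346, beside 0.190 and 0.195 over all genes.

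Degradation rates were listed in all 4 libraries for 40 of the 52 receptor genes (76.9%), beside 66.5% of all genes. Of the 50 receptor genes with both wild-type rates, 7 (14.0%) had no knockout rate at either time, beside 19.5% of all such genes. Grm2 and Grm7 (glutamate receptors coupled to Gi), Htr2c (a serotonin receptor), S1pr1 and Gpr108 had no rate of any kind in knockout cells, with wild-type degradation rates of 0.145 and 0.186 for Grm2 and 0.131 and 0.0924 for Grm7. Gpr135 and Gpr137b had knockout synthesis but no knockout degradation rates. Fzd4, the norrin receptor, had rates in knockout cells only (synthesis 0.784 and 1.07). A missing rate may be a failed estimate and is not read here as a loss of expression.

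When knockout was compared with wild type, 11 of the 40 receptor genes tested had a changed degradation rate as deposited (limma, adjusted p under 0.05 over all 5716 genes), a share of 27.5% where the background is 23.1%. The rate rose in 8 of them (20.0%, background 20.5%) and fell in 3 (7.5%, background 2.57%). Those that rose included Grm4, Adra1b and 5 numbered Gpr genes, Gpr52, Gpr153, Gpr25, Gpr162 and Gpr158; the 3 that fell are Adora2b, Gpr12 and Gpr22. The median log2 change was 0.25 over the 40 receptor genes and 0.65 over all genes. Centring each library on its median, which removes a shift of 0.86, took the receptor median to -0.60 and left 2 calls (background 1.61%), 0 higher (background 0.56%) and 2 lower (background 1.05%), Adora2b and Gpr12 (limma adjusted p = 0.0497 for each). All 11 kept their direction after centring, the 8 that rose at log2 changes of 0.73 to 2.73. With labelling time as a replicate block there were 17 calls (background 48.0%), 10 higher (background 38.2%) and 7 lower (background 9.76%); it kept the 11 and added Chrm3 and Gpr155 (higher) and Fzd3, Gpr37, Gpr45 and Gpr61 (lower), and with the block and centring together 20 (background 36.2%), 6 higher (background 13.9%) and 14 lower (background 22.4%). Admitting genes with at least 1 rate per genotype gave 12 calls of 43 (background 23.8%). The authors' deposited table marks 14 of 40 receptor genes at adjusted p under 0.05 (background 36.3%). Those 40 differ in part from the 40 tested here: they include Fzd2 but not Gpr12, Gpr19 or Gpr22. Without the wild-type 20 min library 5 receptor genes were called (background 19.5%), without the wild-type 60 min library 0 (background 0.0175%), without the knockout 20 min library 0 (background 2.62%) and without the knockout 60 min library 2 (background 2.26%; Fzd3 and Gpr45, not among the 11); each such fit leaves 1 library in a genotype, assumed to vary like the others.

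Among metabotropic glutamate receptors, Grm4, a presynaptic group III receptor coupled to Gi (chr17:27422387-27521403), had degradation rates of 0.0548 (20 min) and 0.0365 (60 min) in wild-type cells and 0.557 and 0.517 in knockout cells. Both knockout values lay far above both wild-type values (log2 change 3.58, SE 0.371, limma adjusted p = 0.0235). Grm3, a group II receptor found in neurons and astrocytes, had 0.125 and 0.0534 against 0.0861 and 0.0450, overlapping groups (log2 change -0.39, SE 0.609, limma adjusted p = 0.654).

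Among amine and acetylcholine receptors, 1 of 9 tested was called (background 23.1%). Adra1b (chr11:43774606-43901210) had degradation rates of 0.0915 and 0.0678 in wild-type cells and 0.431 and 0.378 in knockout cells (log2 change 2.36, SE 0.350, limma adjusted p = 0.0242). The muscarinic receptor Chrm3 had 0.115 and 0.190 against 0.422 and 0.537, groups that do not overlap, but missed the threshold (log2 change 1.69, limma adjusted p = 0.0526, and 0.0186 with the block). Chrm1, the main cortical muscarinic receptor, had 0.196 and 0.170 against 0.256 and 0.218 (log2 change 0.37, limma adjusted p = 0.431), a difference that turns to -0.49 after centring. Htr1a, an inhibitory serotonin receptor, had 0.356 and 0.400 against 0.479 and 0.616 (log2 change 0.53, limma adjusted p = 0.298), which turns to -0.33 after centring. Neither Chrm1 nor Htr1a passed the test in any fit run.

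Adora2b, the low-affinity adenosine receptor coupled to Gs (chr11:62248984-62266453), had degradation rates of 0.261 and 0.250 in wild-type cells and 0.0285 and 0.0381 in knockout cells. Both knockout values lay well below wild type (log2 change -2.95, SE 0.343, limma adjusted p = 0.0235). Of the 5 Frizzled genes tested 0 were called by limma (background 23.1%), with 2 at unadjusted p under 0.05 (Fzd3 and Fzd8; 43.1% of all genes pass it) and 1 called with the block (background 48.0%). The latter is Fzd3, which acts in axon guidance, with 0.0835 and 0.104 against 0.00186 and 0.0188 (log2 change -3.98, SE 1.18, limma adjusted p = 0.0751, and 0.0248 with the block). Its knockout rate at 20 min is the lowest in the plot of degradation rates, and on the log scale its 2 knockout rates differ from each other by more than the higher of them differs from wild type.

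Among numbered genes, 7 of 22 tested were called (background 23.1%). Gpr52, a Gs-coupled orphan that counteracts dopamine D2 signalling, had degradation rates of 0.196 and 0.467 in wild-type cells and 1.59 and 2.47 in knockout cells (log2 change 2.71, SE 0.569, limma adjusted p = 0.0395). It lies at chr1:160574717-160579704, inside the span of Rabgap1l (chr1:160219174-160793211), and the reads of the pair cannot be told apart here. The strand of Gpr52 was not looked up, and strand use in counting is not stated. Rabgap1l had 0.0723 and 0.136 in wild-type cells and 0.0282 and 0.0439 in knockout cells, a change in the opposite direction that was not called (log2 change -1.50, limma adjusted p = 0.0906). Gpr153 (chr4:152274232-152285337) had 0.0429 and 0.0430 against 0.225 and 0.215 (log2 change 2.36, SE 0.312, limma adjusted p = 0.0235), with the 2 libraries of each genotype close together. Gpr25, a single-exon gene (chr1:136259797-136260873), had 0.171 and 0.163 against 0.947 and 0.642 (log2 change 2.23, SE 0.365, limma adjusted p = 0.0272). Gpr162 (chr6:124858444-124863983) had 0.0484 and 0.0310 against 0.152 and 0.114 (log2 change 1.77, SE 0.405, limma adjusted p = 0.0466). Gpr158, a class C orphan that binds Rgs7 complexes and responds to glycine (chr2:21367542-21830547), had 0.0818 and 0.116 against 0.292 and 0.293 (log2 change 1.58, SE 0.355, limma adjusted p = 0.0447). In each of these 5 genes both knockout values exceeded both wild-type values.

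The remaining called pair had the fastest wild-type decay of all receptor genes. Gpr12 (chr5:146582398-146585239) went from 2.71 and 2.34 in wild-type cells to 0.349 and 0.373 in knockout cells (log2 change -2.80, SE 0.321, limma adjusted p = 0.0235). Gpr22 (chr12:31706867-31713947), which overlaps Cog5 on the other strand, went from 1.08 and 1.37 to 0.288 and 0.371 (log2 change -1.90, SE 0.354, limma adjusted p = 0.0318). Cog5 moved the other way, from 0.0534 and 0.0571 to 0.181 and 0.175 (log2 change 1.69, limma adjusted p = 0.0314). In the knockout the rates of Gpr12 and Gpr22 overlapped each other, although they did not in wild-type cells. Over all 40 genes, 18 had both knockout rates above both wild-type rates (45.0%, background 52.6%) and 11 had both below (27.5%, background 16.5%).

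**Figure D2:**
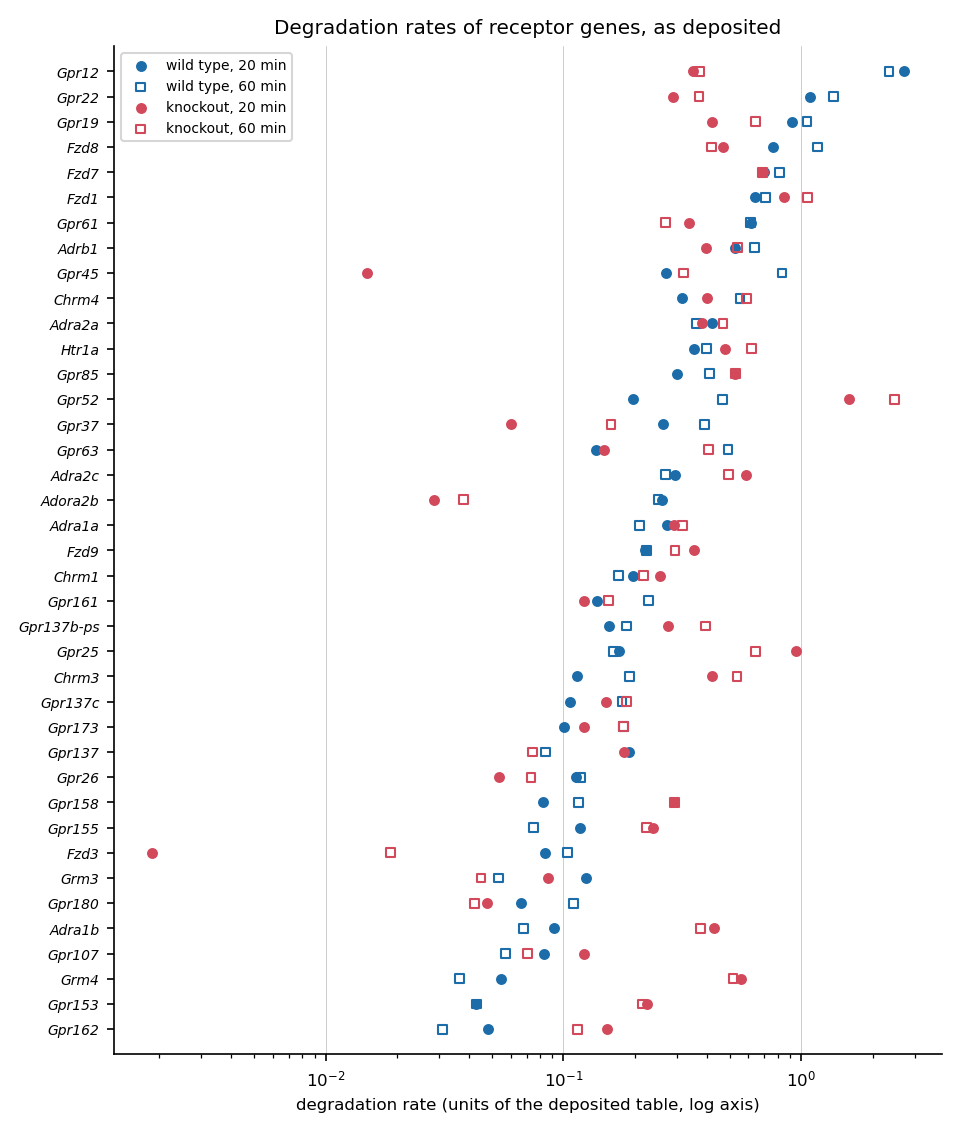
Deposited degradation rates of 39 receptor genes listed in all 4 labelled libraries (log axis, units of the deposited table), ordered by wild-type mean. Blue marks are wild type and red marks are knockout; filled circles are 20 min and open squares 60 min. Red marks lie to the left of blue for Gpr12, Gpr22 and Adora2b and to the right for Grm4, Adra1b and Gpr153; the lowest mark is Fzd3 in knockout cells at 20 min (0.00186).

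The deposited rates of the genotypes follow different arithmetic, which bears on every degradation change above. In wild type, synthesis divided by degradation gave the same value at 20 and 60 min, within 0.001 on the log2 scale, in 45 of 50 receptor genes (90.0%) and 7389 of 7914 genes (93.4%), as for 1 RNA level shared by both libraries. In the knockout this ratio was the same in 0 of 41 receptor genes. Knockout rates instead fitted a balance in which degradation rate times mature level equals the synthesis rate less the difference of the mature and the precursor level from wild type. Solving this balance for the knockout mature level gave the same value from the 20 and the 60 min library in 36 of 36 receptor genes, and in 5332 of 5332 genes, whose wild-type ratios agreed. The precursor level solved likewise from the processing rates agreed in 26 of 26 receptor genes and 5076 of 5076 genes. The deposited knockout rates thus contain a term for the difference in RNA level between genotypes. Neither the labels nor the headers state how it was derived. In the genes whose levels agree, the 2 degradation rates of a genotype share 1 RNA level. The spread on which their p-values rest leaves out the error of that level. The limit holds for processing too. Wild-type synthesis divided by processing was the same at both times in 33 of 33 receptor genes and 7055 of 7055 genes. The p-values of processing rates below, with or without the labelling-time block, thus leave out the error of the precursor level.

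The solved mature level was below wild type where the deposited degradation rate was higher, and above it where the rate was lower, in 40 of 40 receptor genes and in 5280 of 5704 genes (92.6%). The level difference is a term of the balance, so the level and the rate are not independent measurements. The knockout level was the same from both libraries in 36 of the 40 receptor genes, as for 1 level per genotype. Their level changes have no replicate check, and no level change was tested. The labels of the first but not the second input of each genotype name the rate tables, and which inputs gave the level is not stated. Level changes were mostly small beside the rate changes: Grm4 went from 7.84 to 5.37 (log2 change -0.54), Gpr25 from 3.30 to 2.27 (-0.54) and Gpr52 from 2.98 to 2.15 (-0.47). Adra1b went from 2.37 to 1.81 (-0.39) and Gpr162, the most abundant of the called genes, from 57.7 to 53.0 (-0.12). Upward, Gpr12 went from 0.832 to 4.94 (log2 change 2.57), Gpr22 from 6.56 to 9.95 (0.60) and Adora2b from 2.60 to 3.19 (0.30). Over the 40 genes 17 levels were above and 23 below wild type, with a median log2 difference of -0.07, beside -0.08 over 5704 genes; the largest rise was that of Gpr12 and the largest fall that of Grm4.

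**Figure D3:**
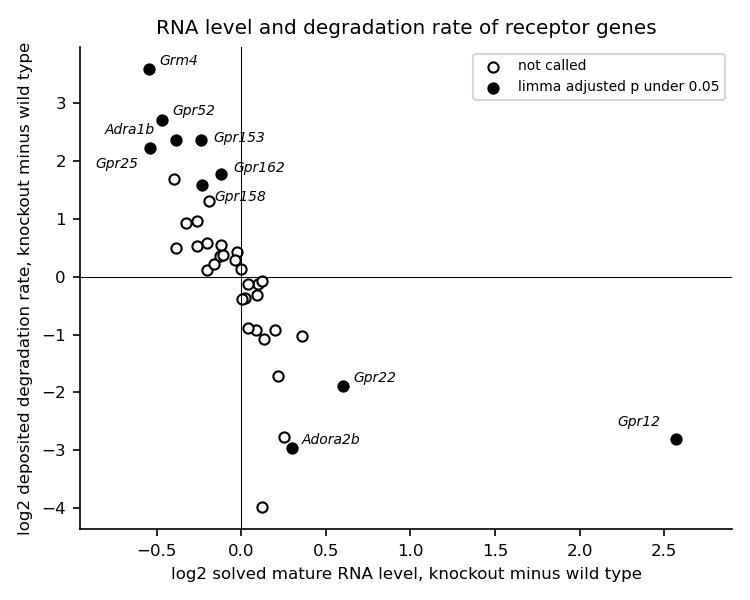
Log2 difference of the solved mature RNA level (x axis) and of the deposited degradation rate (y axis), knockout minus wild type, for 39 receptor genes. Filled points are 10 genes with limma adjusted p under 0.05. All points lie in the upper left and lower right, and the 2 axes are not independent, since the levels were solved from the rates; Gpr12 stands alone at a level difference of 2.57.

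When the knockout degradation rate was recomputed as synthesis divided by the solved level, the form the wild-type rates have, 0 of 40 receptor genes and 0 of 5704 genes were called by limma (background 0.0%), with and without the block. At unadjusted p under 0.05 there were 2 receptor genes (Gpr12 and Gpr52) without the block and 6 with it, beside 100 and 529 of all genes (1.75% and 9.27%). Fmr1 itself was not called there (log2 change 2.89, SE 0.396, limma adjusted p = 1.00). This alternative was chosen after the deposited values had been seen. The recomputed change is the synthesis change less the level change, and its direction matched the deposited one in all 11 called genes. Its size shrank in most: Grm4 went from 3.58 to 0.78, Adra1b from 2.36 to 0.29, Gpr153 from 2.36 to 0.34, Gpr25 from 2.23 to 0.87, Gpr162 from 1.77 to 0.12 and Gpr158 from 1.58 to 0.29. Adora2b went from -2.95 to -0.23, Gpr22 from -1.90 to -0.90 and the uncalled Fzd3 from -3.98 to a value of -0.00026. In 2 genes most of the change remained, Gpr12 (from -2.80 to -2.66) and Gpr52 (from 2.71 to 2.39), with limma adjusted p = 1.00 in both, and 0.283 for Gpr12 and 0.352 for Gpr52 with the block. The recomputed median was -0.04 over receptor genes and 0.06 over all genes.

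**Figure D4:**
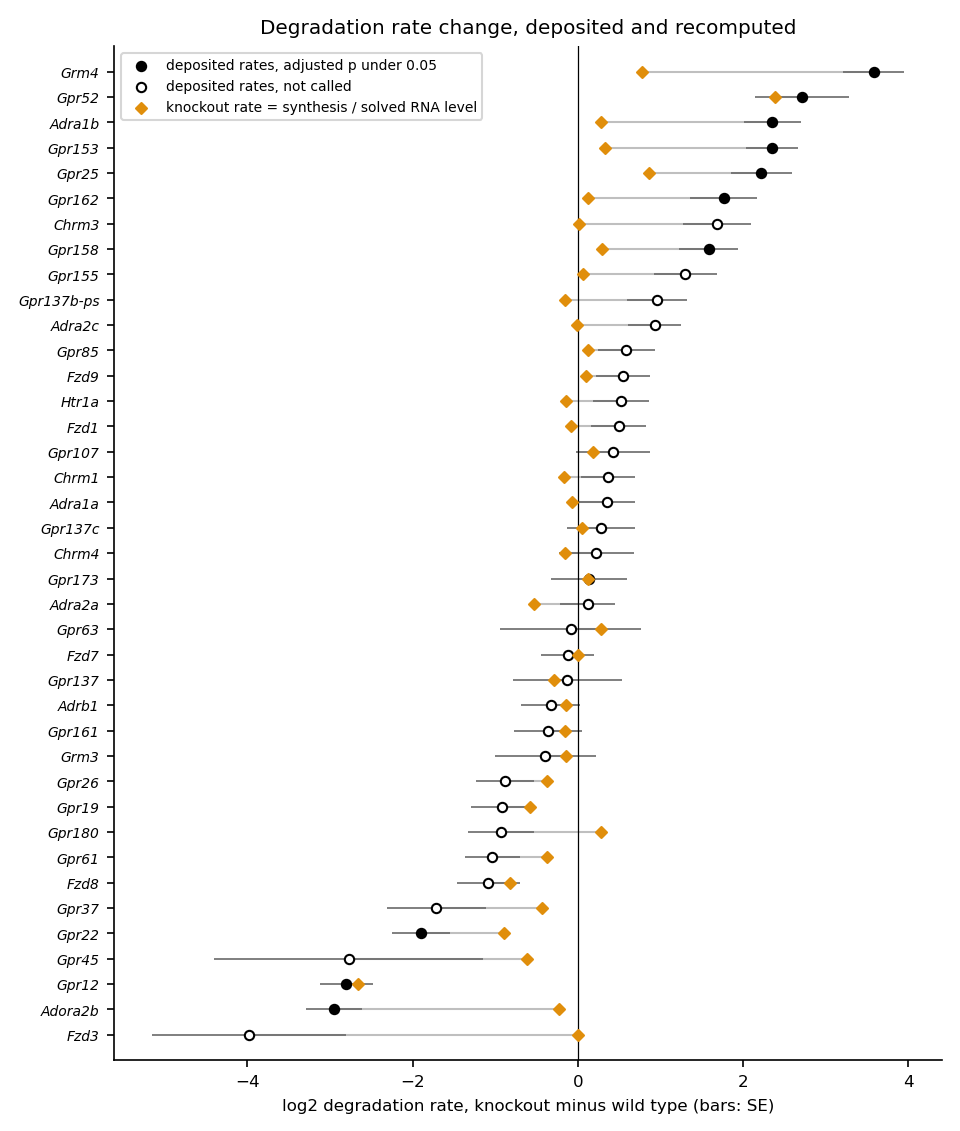
Log2 change of degradation rate, knockout minus wild type, for 39 receptor genes. Circles are the deposited rates with their SE (filled where limma adjusted p is under 0.05), and orange diamonds the change when the knockout rate is synthesis over the solved RNA level. Most diamonds sit near 0; those of Gpr12 (-2.66) and Gpr52 (2.39) stay near their circles.

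Synthesis rates, which enter this balance as they stand, changed in 0 of 42 receptor genes by limma (background 0.0%), with 2 at unadjusted p under 0.05 (Gpr52 and Gpr135; 4.76%, beside 0.311% of all genes), or 3 with the block (Adra2a added; 7.14%, beside 4.59%), which also gave 0 calls. The median log2 change was -0.13, beside -0.03 over 5794 genes, and it was negative in 29 of 42 (69.0%, beside 53.4% of all genes at or below 0). The groups did not overlap in 12 of them: 10 were lower in both knockout libraries (23.8%, background 9.2%) and 2 higher (4.76%, background 8.92%). The 10 were Gpr135, Adra2a, Fzd8, Fzd1, Htr1a, Gpr19, Adra2c, Gpr26, Gpr22 and Chrm1, and the 2 were Gpr52 and Adora2b. All 9 amine and acetylcholine receptors tested had a log2 change below 0 (median -0.31), a side on which 53.4% of all genes lie, and none passed the test.

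The largest difference in synthesis was that of Gpr52, at 0.583 and 1.39 in wild-type cells and 2.59 and 4.50 in knockout cells (log2 change 1.93, SE 0.598, limma adjusted p = 1.00). Both knockout values lay above both wild-type values, although the values at 20 and 60 min differ widely within a genotype. Rabgap1l, which spans it, had 1.35 and 2.55 against 1.88 and 2.21 (log2 change 0.14). Gpr135, a single-exon orphan, had 2.76 and 2.04 against 1.01 and 1.06 (log2 change -1.20, SE 0.401, limma adjusted p = 1.00). Adra2a, the inhibitory adrenergic receptor of cortex, had 5.79 and 4.98 against 2.76 and 3.78 (log2 change -0.73, SE 0.409). Fzd8 had 2.80 and 4.30 against 2.27 and 2.07 (log2 change -0.68, SE 0.426). The groups of Gpr135, Adra2a and Fzd8 did not overlap.

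Gpr63, an orphan of brain, had synthesis rates of 0.715 and 2.55 in wild-type cells and 1.20 and 2.67 in knockout cells, where labelling time separates the values more than genotype (log2 change 0.41, SE 0.776). Htr1a had 0.988 and 1.11 against 0.647 and 0.966 (log2 change -0.41), and Chrm1 had 5.05 and 4.39 against 4.35 and 3.46 (log2 change -0.28). Both were lower in knockout cells without overlap. In 20 of 42 receptor genes (47.6%), beside 43.4% of all 5794 genes, the difference in synthesis rate between the genotypes had opposite signs at the 2 labelling times; none of these differences was called.

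Processing rates could be compared in 26 receptor genes, of which 0 were called by limma (background 0.0%), with 4 at unadjusted p under 0.05 (Gpr12, Gpr153, Gpr137b-ps and Gpr155; 15.4%, the same share as of all genes). Pairing by labelling time called 7 (26.9%, background 25.6%), 2 higher (background 6.26%) and 5 lower (background 19.3%). With centring added it called 4 (background 13.5%), 3 higher (background 7.14%) and 1 lower (background 6.4%): Gpr12, Gpr137 and Gpr63 higher and Gpr153 lower. The median log2 change was -0.23, beside -0.36 over 5082 genes; centring removes a shift of -0.35 and took the receptor median to 0.12. With the rates recomputed from the solved precursor level, 0 were called without the block and 4 with it (background 15.5%), 1 higher (background 3.61%) and 3 lower (background 11.9%; Gpr12 higher and Gpr153, Gpr137b-ps and Gpr155 lower).

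Gpr12 had the largest difference, at 0.423 and 0.364 in wild-type cells, the slowest processing of any receptor gene there, and 4.11 and 4.20 in knockout cells (log2 change 3.40, SE 0.402, limma adjusted p = 0.100, and 0.00752 with the block). Its solved precursor level went from 5.34 to 1.42 while the mature level went from 0.832 to 4.94. Wild type thus held more Gpr12 precursor than mature RNA and the knockout less. The mature level rise, the degradation fall and the processing rise of Gpr12 all rest on this split into precursor and mature RNA. They are not separate results, and the split has 1 value per genotype. The gene has at most 2 exons in a transcript. Recomputed, its processing change was 1.82. Gpr137 had 2.58 and 1.16 against 6.43 and 3.16 (log2 change 1.38, limma adjusted p = 0.359, and 0.0194 with the block); it overlaps Bad, a cell death gene on the other strand, whose processing went from 11.0 and 5.89 to 3.45 and 1.30. Gpr63 had 2.71 and 9.69 against 7.06 and 15.2 (log2 change 1.01, and a limma adjusted p of 0.0563 with the block), with overlapping groups.

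In the other direction, Gpr153 had processing rates of 6.98 and 7.00 in wild-type cells and 1.88 and 1.46 in knockout cells (log2 change -2.08, SE 0.412, limma adjusted p = 0.137, and 0.0105 with the block). Gpr137b-ps had 8.25 and 9.73 against 1.66 and 4.19 (log2 change -1.76, limma adjusted p = 0.245, and 0.0244 with the block), with the uncertainty of its near-identical copy. Gpr155 had 23.2 and 14.9 against 8.74 and 7.38 (log2 change -1.21, limma adjusted p = 0.293, and 0.0288 with the block). In these 3 genes the groups did not overlap. Grm3 had 11.6 and 4.96 against 4.48 and 2.42 (log2 change -1.21, limma adjusted p = 0.412, and 0.0278 with the block), with the same direction at each time. Chrm1 (13.5 and 11.7 against 8.96 and 7.08) was not called in either fit. Leaving out the knockout 20 min library or the knockout 60 min library gave 1 call each (background 1.87% and 1.12%), Gpr12 in both cases, and leaving out the wild-type 20 min or 60 min library gave 0 (background 0.118% and 0.0197%).

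**Figure D5:**
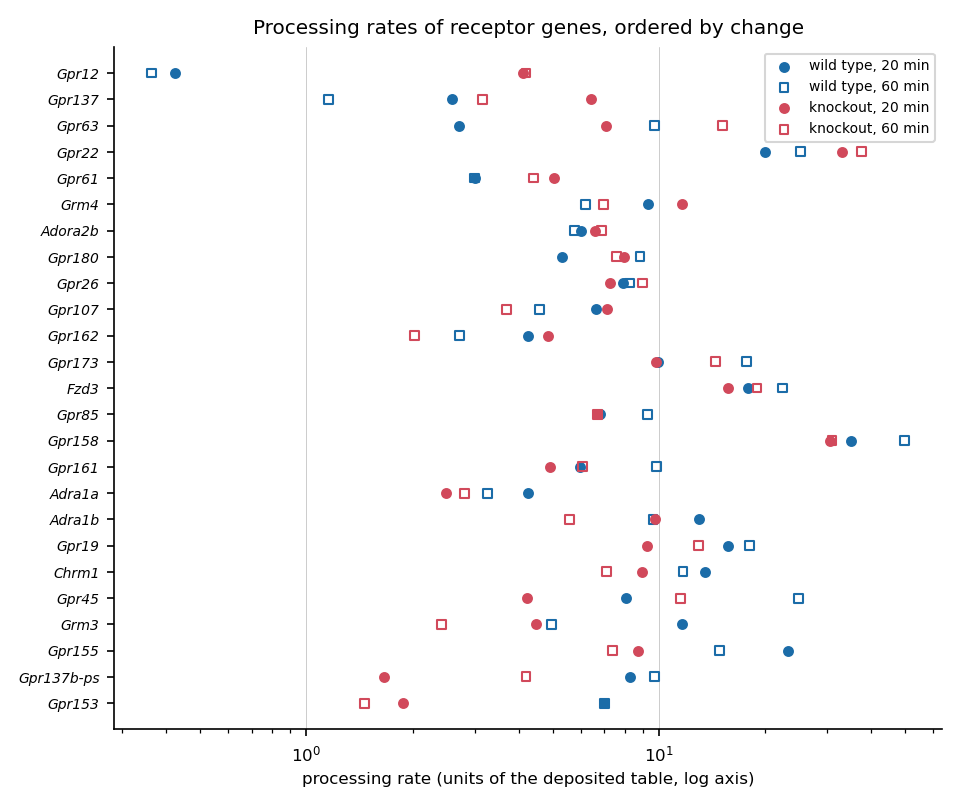
Processing rates of 25 receptor genes listed in all 4 labelled libraries (log axis, units of the deposited table), ordered by log2 change from Gpr12 at the top to Gpr153 at the bottom. Blue marks are wild type and red marks are knockout; filled circles are 20 min and open squares 60 min. The marks of the genotypes are wide apart for Gpr12 (0.423 and 0.364 against 4.11 and 4.20) and Gpr153, and close or mixed in the middle rows.

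The proteins through which these receptors act were followed in a list of 74 genes, of which 45 are in the table and 31 could be tested for degradation. By limma on the deposited rates 5 rose (background 20.5%), 1 fell (background 2.57%) and 25 were not called, with a median log2 change of 0.93 (0.65 over all genes). The 5 were Gng13, a G protein gamma subunit (0.0602 and 0.0177 in wild-type cells, 1.22 and 1.09 in knockout cells, log2 change 5.14), Rgs6 and Rgs10, which speed up GTP hydrolysis by G proteins (log2 changes 3.15 and 2.69), Dvl2, an effector of Frizzled receptors (2.15), and Adcy3, an adenylyl cyclase (1.96). The gene that fell was Homer1, a postsynaptic scaffold protein (0.150 and 0.148 against 0.0395 and 0.0286, log2 change -2.15). With the block 14 rose (background 38.2%) and 5 fell (background 9.76%), and after centring 0 rose (background 0.56%) and 1 fell (background 1.05%). Block and centring together gave 5 that rose (background 13.9%) and 7 that fell (background 22.4%). From the recomputed rates 0 of 30 were called by limma with or without the block, 0 and 4 of them at unadjusted p under 0.05 (1.75% and 9.27% of all genes). Recomputed, the log2 change was 0.08 for Rgs6, 0.68 for Rgs10, 0.83 for Dvl2, -0.25 for Homer1 and -0.00025 for Adcy3, which turned sign. Gng13, the largest deposited change, had no knockout synthesis rate at 60 min and is not among the 30. For synthesis 0 of 30 and for processing 0 of 31 were called by limma (background 0.0% for each). At unadjusted p under 0.05 there were 0 in both, beside 0.311% of all genes for synthesis and 15.4% for processing. With the block 1 processing rate rose (background 6.26%) and 3 fell (background 19.3%).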

How the data were processed

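RNA metabolic rates were measured by 5-EU labelling in wild-type and Fmr1-knockout neurons. The authors deposited 1 table of rates for 4 labelled libraries, linear values in units that are not stated. They also deposited, per rate, a limma table which, per the file headers, holds log2 fold changes and mean log2 rates, p-values and adjusted p-values, and 2 score columns (a moderated statistic and log odds, not used). The submitters' processing notes name cutadapt, Bowtie2, TopHat2, HISAT2 and limma, and mm10, dm6 and sacCer3, without roles; the counting and its strand are not given in the sources used here. Of columns for other samples there were 0.

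Genes with a rate above 0 in all 4 libraries were compared on log2 rates, without a pseudocount, by limma 3.58.1 in R 4.3.3 (lmFit, eBayes, two-sided, Benjamini-Hochberg over all genes tested, threshold 0.05). The script was checked on simulated rates. Labelling times stood as replicates, and pairing by them, which the labels give, was an alternative; the difference between times correlated across genes between genotypes (Spearman rho 0.735 for synthesis, 0.735 for processing, 0.652 for degradation). Other alternatives were centring, quantile normalization, leaving out genes at or under the 25th percentile, genes with at least 1 rate per genotype, a pseudocount at the 10th percentile, a trended prior, a threshold of 0.01, the authors' table, leaving out each library, and, chosen after seeing the data, rates recomputed from solved levels. Genes named with values were those called, the 3 largest rises and falls per rate, Fmr1 and some known receptors; Chrm3, Gpr85, Gpr19, the fast Frizzled genes and the overlapping genes were added after their values were seen. The members and lists were chosen with earlier results of these data known. Exons and coordinates are from GENCODE M21 (GRCm38), which had 51 of 52 receptor genes; Gpr52 and promoters are from RefSeq (GRCm38.p6). No interval for counting error can be given, since the depth is unknown. Some receptor genes are counted in the totals but are not reported or drawn here.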

Additional observations from a re-analysis of the deposited data

Results flagged for a closer look

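The synthesis rates of Gpr180 and Grm3 had knockout minus wild-type differences of opposite sign at the 2 labelling times; the difference between times was not tested. Gpr180 had a log2 change of 0.76 at 20 min and -0.042 at 60 min, from rates of 0.321 and 0.536 in wild-type cells and 0.545 and 0.520 in knockout cells. Grm3 had -0.36 at 20 min and 0.089 at 60 min, from 1.14 and 0.487 in wild-type cells and 0.888 and 0.518 in knockout cells. Neither gene's synthesis rate was called by limma.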

How the results depend on the processing

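The number of receptor genes called for degradation rate was 11, and came to 2 after centring, 5 after quantile normalization, 17 with the replicate block, 20 with the block and centring, 0 with recomputed knockout rates (0 also with the block), 0 at a threshold of 0.01, and 0 to 5 when a library was left out. It stayed within 1.5 times with the low filter (11), at least 1 rate per genotype (12), a pseudocount (15) and a trended prior (12). The authors' deposited table marked 14 of a partly different 40 receptor genes. No share over all genes is given for quantile normalization, the low filter, the pseudocount, the trended prior or the threshold of 0.01. Those counts were therefore not set against the whole table. For processing, 0 became 7 with the replicate block, 4 with the block and centring, 4 with recomputed rates and the block, and 0 to 1 when a library was left out. Synthesis gave 0 calls in every fit run. The block is the pairing by labelling time. The degradation change of Chrm1 reversed to -0.49 with centring (also with the block), -0.51 with quantile normalization and -0.17 with recomputed rates, with or without the block. That of Htr1a reversed to -0.33, -0.20 and -0.14 under the same settings. When single libraries were left out, the change ran from -1.01 to 0.22 for Grm3 degradation and in synthesis from -0.0082 to 0.73 for Gpr180, -0.51 to 1.33 for Gpr63 and -0.75 to 0.48 for Grm3. The reversals with centring come from its subtracting a shift of 0.86 from every gene. Whether that shift is technical or a difference between the genotypes was not tested. The cause of the other reversals was not tested. The depth is unknown, and each genotype has 2 labelled libraries and, for most genes, 1 RNA level. How small a change in a single receptor gene could have been detected was not tested.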

Other observations

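The authors' deposited table of degradation changes differs from the fit used above in which receptor genes it holds. It lists Fzd2, a single-exon Frizzled gene without a knockout rate at 60 min (0.345 and 0.286 in wild-type cells, 0.0466 in knockout cells at 20 min), with a log2 change of -2.93 and an adjusted p of 0.0143. Gpr12, Gpr19 and Gpr22, which have the fastest wild-type decay of the receptor genes by mean over the labelling times, have no degradation change listed in it. The calls of Gpr12 and Gpr22 could therefore not be compared with that table. For Fzd3 the authors' deposited table gives a log2 change of -2.03 with an adjusted p of 0.0305, where the fit above gave -3.98, and for Grm4 it gives 3.58.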
